A study of Mus musculus with 6 samples.

Results

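The ubiquitin-specific proteases (Usp) are the largest class of mammalian deubiquitinases, cysteine proteases that cut ubiquitin from other proteins. Mouse genes whose symbol starts with Usp and a number were taken, without Usp18, from all genes that had a probe set of their own on the array, which gave 54 genes of 19938. The family was singled out because Usp11 had fallen in the same comparison, so the values of Usp11 are a description with no test. The other 53 genes were taken by symbol, whatever their values. The symbol rule also takes Usp6nl, whose product is a GTPase-activating protein for Rab proteins and not a protease, and Usp46os2, a transcript of the strand opposite Usp46. Usp18, which cuts the ubiquitin-like protein ISG15, lies outside the rule and was higher by 0.51 (SE 0.0641, limma adjusted p = 0.00529).

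All 6 samples were pre-B cells transformed by BCR-ABL1, the fusion kinase of Philadelphia chromosome-positive leukaemia, from mice of 5 weeks on a 129SvEv x C57BL/6J background. Every sample carried floxed alleles of the transcription factor Sox4 (Sox4fl/fl). The control group of 3 received ERT2, an oestrogen receptor fragment that binds 4OHT (4-hydroxytamoxifen). The deletion group of 3 received Cre-ERT2, the same fragment fused to a recombinase that 4OHT then switches on. Both groups were given 4OHT, and RNA was taken 24 h later and read on 1 Affymetrix array per sample. No sample combines Cre-ERT2 with unfloxed Sox4, so loss of Sox4 and activity of Cre cannot be told apart. The labels do not name separate cultures or mice within a group, so the p-values rest on a spread between samples that may be technical.

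Ubiquitin marks proteins for the proteasome, for sorting in membranes or for signalling, and Usp enzymes remove it from chosen substrates. Usp11 is best known from the repair of DNA breaks by homologous recombination. Its closest relatives are Usp4 and Usp15, which share with it a DUSP domain and ubiquitin-like domains ahead of the catalytic core. Other members act on histones, on the p53 regulator Mdm2, on endosomes or at the proteasome.

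The promoters of Usp11, of its relatives Usp4 and Usp15, and of Usp51 and Usp27x, X-linked relatives of each other that moved in opposite directions, are shown so that the genes that differed and those that did not can be set side by side. Each run is the 250 bases before the annotated start, 5′ to 3′ on the strand of the gene, from RefSeq on GRCm38.p6. The Usp11 run lies at chrX:20703659-20703908 on the + strand and the Usp4 run at chr9:108347581-108347830 on the + strand. The Usp15 run lies at chr10:123197020-123197269 on the - strand. The Usp51 run lies at chrX:153006219-153006468 on the + strand and the Usp27x run at chrX:7375831-7376080 on the - strand. Capitals mark AACAAT on either strand, a core that Sox proteins can bind.
Usp11: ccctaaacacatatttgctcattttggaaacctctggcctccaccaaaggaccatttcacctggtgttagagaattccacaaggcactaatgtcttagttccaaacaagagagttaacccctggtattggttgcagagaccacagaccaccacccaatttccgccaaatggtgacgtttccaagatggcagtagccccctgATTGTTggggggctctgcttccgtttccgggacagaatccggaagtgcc
Usp4: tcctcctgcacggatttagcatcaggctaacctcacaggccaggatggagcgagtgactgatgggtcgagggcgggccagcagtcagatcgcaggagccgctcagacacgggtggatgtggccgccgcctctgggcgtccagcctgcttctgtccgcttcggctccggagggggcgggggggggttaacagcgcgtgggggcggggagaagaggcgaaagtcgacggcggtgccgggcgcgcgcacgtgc
Usp15: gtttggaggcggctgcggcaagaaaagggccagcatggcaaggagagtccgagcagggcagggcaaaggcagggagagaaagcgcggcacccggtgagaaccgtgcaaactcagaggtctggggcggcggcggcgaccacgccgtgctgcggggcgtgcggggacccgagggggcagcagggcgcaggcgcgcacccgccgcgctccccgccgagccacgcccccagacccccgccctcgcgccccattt
Usp51: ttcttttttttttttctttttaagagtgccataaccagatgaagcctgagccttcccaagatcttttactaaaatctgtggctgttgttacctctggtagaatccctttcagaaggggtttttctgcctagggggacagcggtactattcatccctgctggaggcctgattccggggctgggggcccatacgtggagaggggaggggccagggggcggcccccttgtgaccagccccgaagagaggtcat
Usp27x: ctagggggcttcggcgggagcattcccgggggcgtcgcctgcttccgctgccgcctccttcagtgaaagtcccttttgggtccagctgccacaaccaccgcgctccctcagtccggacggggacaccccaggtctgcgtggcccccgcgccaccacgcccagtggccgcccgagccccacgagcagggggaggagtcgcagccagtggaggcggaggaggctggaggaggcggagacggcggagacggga

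Usp11 held 5 CpG dinucleotides in this window and Usp51 held 5, whereas Usp4, Usp15 and Usp27x held 26, 29 and 24. The median was 6 over all 32851 promoters and 21 over the 44 promoters of the 43 Usp genes that had one. Some other Usp genes kept to the split seen in these 5 windows and others did not. Usp36, which rose, held 28, and Usp25 and Usp7, which did not pass, held 47 and 55. Usp3, which fell, held 18, and the windows of Usp6nl, which also fell, held 43 and 6. Usp26, Usp54 and Usp50, which did not pass, held 5, 4 and 2. Usp33 and Usp44, which fell, had no promoter in the source used here. A link between CpG count and difference was not tested. AACAAT was in the Usp11 window and in 9.42% of all promoters, and it was looked for after the sequence had been seen. It was in 3 of the 44 Usp promoters, those of Usp11, Usp10 and Usp54, and Usp10 and Usp54 did not pass. The 8 longer Sox forms, which are CAAAG or CAATG behind any pair of the letters A and T, were searched on both strands and were in none of the 5 windows. At least 1 of them was in 4 of the 44 Usp promoters and in 21.8% of all promoters. 1 of the longer forms holds AACAAT, so the searches overlap. A match is a run of letters and not a binding site.

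The targeted gene was checked first. Sox4 read 1459, 1372 and 1237 on the ERT2 arrays and 599, 541 and 499 on the Cre-ERT2 arrays, and it fell by 1.31 on the log2 scale (SE 0.0912, limma adjusted p = 0.000434). Which part of the transcript its probes cover is unknown here, so they may lie outside the deleted stretch. Median intensity per array lay between 273 and 279. Of 9 pre-B cell markers 8 were measured, and their summed intensity was 64346 to 64897 in ERT2 and 61713 to 62901 in Cre-ERT2. Of these 8, 2 fell, the recombinase genes Rag1 and Rag2, and 0 rose, where 3.72% and 4.38% of all genes did. The lowest difference among the 8 was -1.35, and 3 were lower at an unadjusted p under 0.05. Summed intensities of 5 T-cell markers (820 to 869 in ERT2, 794 to 857 in Cre-ERT2), 4 NK-cell markers (415 to 433 and 412 to 451), 5 stromal markers (1490 to 1717 and 1597 to 1737) and 2 erythroid markers (295 to 322 and 324 to 372) had 0 genes past the limma threshold, and 1 T-cell marker had an unadjusted p under 0.05. Of 6 myeloid markers, with sums of 1125 to 1192 and 1586 to 1777, Lyz2 rose by 1.40 and Itgam fell by 0.49. Among 9 culture stress genes, with sums of 7802 to 8479 and 8472 to 8948, Egr1 fell by 0.33 and 0 rose, and at an unadjusted p under 0.05 3 were higher (Jun, Atf3 and Hspa1a, at 0.18, 0.26 and 0.32). At that p 20.1% of all genes differed, 12.2% higher and 7.93% lower. The part of these shifts in the values below was not tested.

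Usp11 was lower in every Cre-ERT2 sample. Its probe set (10598933) read 1500, 1378 and 1361 in the ERT2 samples and 184, 201 and 187 in the Cre-ERT2 samples. The groups lay far apart, and the Cre-ERT2 mean of 191 ± 9.07 (SD, n = 3) was 13.5% of the ERT2 mean of 1413 ± 75.7 (SD, n = 3). On the scale of log2(intensity + 1) the difference was -2.88 (SE 0.0623, 95% interval -3.03 to -2.73). In bulk RNA, fewer cells with a transcript and less of it per cell cannot be told apart.

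Usp4 and Usp15, the closest relatives, were not lower. Usp4, a regulator of TGF-beta receptors and of splicing factors (probe set 10588903), read 4056, 4106 and 3764 in ERT2 and 4117, 4294 and 4161 in Cre-ERT2. All 3 Cre-ERT2 values lay above the ERT2 values by a narrow margin, and the difference was 0.08 (95% interval -0.05 to 0.21, limma adjusted p = 0.585). It was 0.04 without ERT2 replicate 3. Usp15, which acts on receptor-regulated Smad proteins and on Mdm2 (probe set 10372965), read 4089, 4494 and 4228 in ERT2 and 4882, 4951 and 4796 in Cre-ERT2. Again the groups did not overlap and Cre-ERT2 was the higher one, with a difference of 0.19 (95% interval 0.06 to 0.32, limma adjusted p = 0.11). A difference of the size measured in Usp11 lies outside both intervals, and the difference between Usp11 and its relatives was not tested. Usp15 passed the threshold as a rise under an intensity trend (adjusted p = 0.0343), among the brighter probe sets alone (0.0476) and with array weights (0.0224). Sart3, the splicing factor that recruits Usp4 and Usp15, differed by 0.04 (SE 0.0494) and did not pass.

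**Figure D1:**
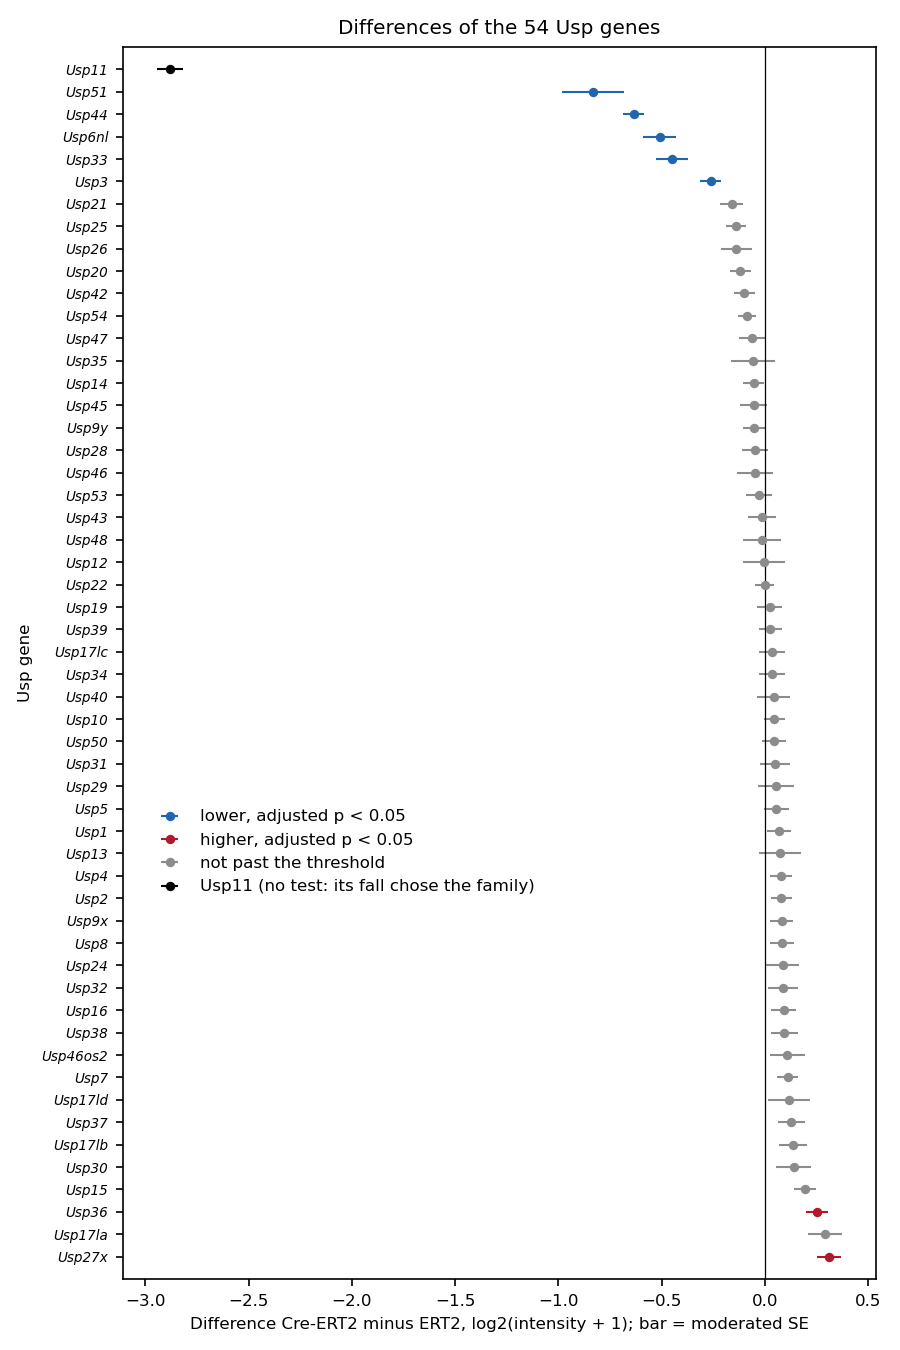
Difference between Cre-ERT2 and ERT2 samples (x axis, log2 of intensity + 1; bars, moderated standard error of the fit over all 6 arrays) for each of the 54 Usp genes, in order. Usp11 stands alone at -2.88, and all other genes lie between -0.83 and 0.31.

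Across the family most values were near 0. The median difference was 0.04 over the 54 genes and 0.02 over all genes, and 45 of the 54 (83.3%) lay within 0.25 of 0, against 89.4% of all genes. The median of the Usp genes was 0.0058 without ERT2 replicate 3 and 0.0096 without Cre-ERT2 replicate 2, below the 0.02 and 0.03 of all genes without the same arrays. At limma adjusted p under 0.05, 8 Usp genes (14.8%) differed, where the background is 8.1% of all genes. Of these, 2 Usp genes (3.70%) were higher, where the background is 4.38% of all genes. The other 6 (11.1%) were lower, Usp11 among them, where the background is 3.72%. With Usp18 included, 3 of 55 were higher. The groups did not overlap in 19 Usp genes (35.2%), where the background is 28.3%. Of these 8 were higher and 11 lower, where the background is 17.5% and 10.8%. Without Usp11, whose fall chose the family, 7 of 53 Usp genes differed, 2 higher and 5 lower. The groups did not overlap in 18 of these 53. These counts describe a family picked from this comparison, and nothing is read from them about the family. They also moved with single arrays. The number of lower genes was 3, 4 and 6 when replicates 1, 2 and 3 of ERT2 were dropped in turn, and 2, 3 and 2 when those of Cre-ERT2 were. Usp11 is 1 of the lower genes each time. The number of higher genes was 1 when ERT2 replicate 3 was dropped and 0 when any other array was. ERT2 replicate 2 was the highest control in 39 of the 54 Usp genes, and in 44.1% of all genes.

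Of the histone-directed enzymes, 7 of 8 listed were measured. Of these Usp27x rose, Usp51, Usp44 and Usp3 fell, and 3 did not pass, where 8.1% of all genes passed. The list was drawn up with earlier results of these data known, and nothing is read from these counts about histone-directed enzymes. Usp51, which removes ubiquitin from histone H2A at DNA breaks (probe set 10602688), read 240, 222 and 173 in ERT2 and 99.2, 129 and 126 in Cre-ERT2. The lowest control lay above the highest Cre-ERT2 value, but the controls were wide apart. The difference was -0.83 (SE 0.152, limma adjusted p = 0.026). The probe set was dim, at the 33.1 percentile of all probe sets. Usp51 lost its call without any array other than ERT2 replicate 3 (adjusted p up to 0.0892).

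Usp27x, a relative of Usp51 that acts on histone H2B (probe set 10603312), moved the other way. It read 392, 410 and 429 in ERT2 and 485, 522 and 519 in Cre-ERT2, a rise by 0.31 (SE 0.0581, limma adjusted p = 0.0289). It too still passed without ERT2 replicate 3 but missed the threshold without any other array (adjusted p up to 0.13). Usp22, the member of this trio that belongs to the SAGA coactivator, read 3305, 3396 and 3365 in ERT2 and 3338, 3445 and 3275 in Cre-ERT2. Its groups overlapped, and the difference was -0.0015 (95% interval -0.11 to 0.11, limma adjusted p = 0.995). All 3 enzymes depend on the adaptors Atxn7l3 and Eny2, which differed by 0.02 (SE 0.0507) and -0.03 (SE 0.0529) and did not pass.

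Usp44, an enzyme of histone H2B and of the mitotic checkpoint (probe set 10365833), read 458, 465 and 446 in ERT2 and 280, 296 and 305 in Cre-ERT2. Both groups were tight and well apart, and the Cre-ERT2 mean was 64.3% of the control mean. It fell by 0.64 (SE 0.0524, limma adjusted p = 0.000901) and passed with each of the 6 arrays left out in turn (adjusted p from 0.00451 to 0.00791), but not when a fold of at least 1.5 was required. Usp3, which acts on histone H2A (probe set 10594613), read 3027, 3206 and 2952 in ERT2 and 2554, 2544 and 2556 in Cre-ERT2. The groups did not overlap, and it fell by 0.26 (SE 0.0502, limma adjusted p = 0.0311). The call was lost without any array other than ERT2 replicate 3 (adjusted p up to 0.131). Usp21, a further enzyme of histone H2A, differed by -0.16 (SE 0.0546, limma adjusted p = 0.191) with groups that did not overlap. It passed under cyclic loess (0.0485) and array weights (0.041). Usp16, which acts on histone H2A in mitosis, differed by 0.09 (SE 0.0623).

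**Figure D2:**
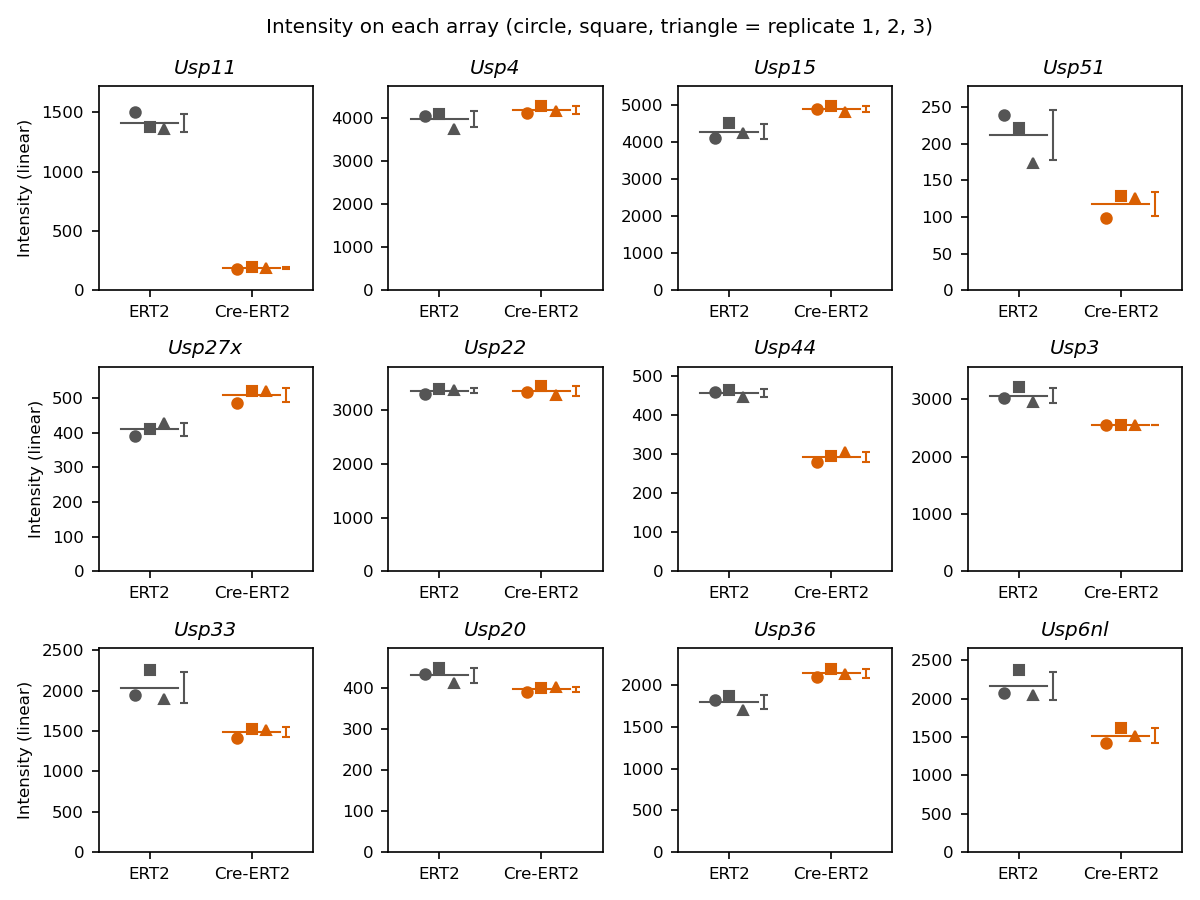
Linear intensity on each array (y axis, from 0) for 12 Usp genes in the ERT2 and Cre-ERT2 samples; horizontal lines are group means and bars are SD, n = 3. Usp11 drops from 1413 to 191, whereas Usp4 and Usp15 are slightly higher in the Cre-ERT2 samples.

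Among the genes listed for endosomes, membranes and mitochondria, 2 of 7 fell and 0 rose, where 3.72% and 4.38% of all genes did. At an unadjusted p under 0.05, 2 were lower and 0 higher. Nothing is read from these counts about the listed genes as a group. Usp33, which acts on receptors at the cell surface (probe set 10496919), read 1948, 2254 and 1901 in ERT2 and 1417, 1529 and 1509 in Cre-ERT2. ERT2 replicate 2 was the high control, and the groups did not overlap. Usp33 fell by 0.45 (SE 0.078, limma adjusted p = 0.0213). The call held without replicate 2 or 3 of ERT2 but was lost without any other array (adjusted p up to 0.0815). Usp20, its closest relative, differed by -0.12 (SE 0.051, limma adjusted p = 0.313). Usp6nl, the GTPase-activating protein taken by its symbol (probe set 10469110), read 2074, 2368 and 2050 in ERT2 and 1425, 1616 and 1513 in Cre-ERT2. It fell by 0.51 (SE 0.0786, limma adjusted p = 0.013), a call that ended when Cre-ERT2 replicate 1 (0.0507) or replicate 3 (0.063) was dropped. Usp30, the deubiquitinase of the mitochondrial surface, differed by 0.14 (SE 0.0841), which became 0.07 without ERT2 replicate 3 and 0.22 without ERT2 replicate 2. Usp8, which works with the endosomal sorting machinery, differed by 0.08 (SE 0.058).

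Usp36, the deubiquitinase of the nucleolus (probe set 10393509), was the other gene that rose. It read 1817, 1866 and 1701 in ERT2 and 2089, 2192 and 2126 in Cre-ERT2. The rise by 0.25 (SE 0.0545, limma adjusted p = 0.0495) sat at the threshold and missed it whichever array was dropped (adjusted p from 0.0521 to 0.182). Usp42, its relative, differed by -0.10 (SE 0.051).

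Of the 5 enzymes listed for the p53-Mdm2 axis 0 passed in limma, and 1, Usp15, had an unadjusted p under 0.05. Over all genes the shares were 8.1% and 20.1%. In 3 of the 5 the groups did not overlap and Cre-ERT2 was higher, where 17.5% of all genes did so. Nothing is read from these counts about the axis. Usp7, which stabilises Mdm2, read 6687, 7170 and 6823 in ERT2 and 7190, 7609 and 7515 in Cre-ERT2, a difference of 0.11 (SE 0.0518, limma adjusted p = 0.363). Usp10, which acts on p53 itself, differed by 0.04 (SE 0.0508), and Usp28, a partner of p53-binding proteins, by -0.05 (SE 0.0637). Usp1, Usp12 and Usp46, which the cofactor Wdr48 activates, differed by 0.07, -0.0043 and -0.05. Usp5 and Usp13, which take apart free ubiquitin chains, differed by 0.06 and 0.07, and Usp14, which sits on the proteasome, by -0.05. Usp39, a splicing factor without protease activity, differed by 0.03. Of these last 7 genes 0 passed in limma, and 0 had an unadjusted p under 0.05, where 8.1% and 20.1% of all genes did.

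In all, 46 of the 54 Usp genes did not pass, with differences from -0.16 to 0.29, and neither did 18323 of all 19938 genes. The groups overlapped in 35 Usp genes, all among these 46, and in 14297 of all genes. Among the 46, Usp17la had the largest difference at 0.29 (SE 0.0819, limma adjusted p = 0.114), with intensities of only 37.5 to 53 on the 6 arrays. It is 1 of 4 measured Usp17l copies, which are nearly identical genes, so cross-hybridisation between them is possible and its extent was not tested. It passed with array weights (adjusted p = 0.0248). Usp25 differed by -0.14 (SE 0.0487) and passed under cyclic loess (adjusted p = 0.0476). Usp17lb differed by 0.14 (SE 0.0678), and by 0.08 without Cre-ERT2 replicate 1. Usp24, Usp31 and Usp54 each had several probe sets, and these 6 probe sets had differences from -0.09 to 0.09. A probe set shared by Usp49 and Med20 differed by 0.09 (SE 0.062), and one shared by Usp17l copies by -0.06 (SE 0.0681). Neither was counted.

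The gene table places 5 measured Usp genes on chromosome X. Of these Usp11 and Usp51 were lower, Usp27x was higher, and Usp9x and Usp26 did not pass. Usp9x, which stabilises the survival protein Mcl1, read 4397, 4744 and 4610 in ERT2 and 4671, 5000 and 4873 in Cre-ERT2, a difference of 0.08 (SE 0.0538). Usp26, a gene of the testis, differed by -0.14 (SE 0.0755) at intensities of 95.5 to 122, and by -0.08 without ERT2 replicate 1 or -0.09 without Cre-ERT2 replicate 1. The Y-linked Usp9y read 33.0 to 36.2 on the 6 arrays. Xist, the RNA that coats the inactive X, differed by -0.04 (SE 0.0582), and of 4 measured genes for X inactivation and the Y chromosome 0 passed in limma, with 0 at an unadjusted p under 0.05. Over all genes the shares were 8.1% and 20.1%. Over 742 measured genes of chromosome X, 29 (3.91%) were higher and 41 (5.53%) lower, against 4.38% and 3.72% of all genes.

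The measured genes nearest to Usp11 on either side did not pass. Cdk16, a cyclin-dependent kinase gene next to it on one side, read 2221, 2208 and 1955 in ERT2 and 2054, 2045 and 1981 in Cre-ERT2, and its overlapping groups differed by -0.07 (SE 0.0644). Araf, a Raf-family kinase gene and the nearest measured gene on the other side, differed by 0.16 (SE 0.0605, limma adjusted p = 0.255). Rbm10, an RNA-binding protein gene behind Cdk16, differed by 0.04 (SE 0.0517). Uba1, which lies between Rbm10 and Cdk16, was not analysed here, and neither were the noncoding genes Gm39499 and Gm39500. Within 10 places on each side 10 genes were measured. Of these Elk1, a transcription factor gene at the far end and named after its values were seen, fell by 0.82 (SE 0.0862, limma adjusted p = 0.0026). The other 9 had differences from -0.07 to 0.16 and did not pass. One of them, Ndufb11, was read by probe set 10525471. That number lies between those of Usp30 (10524436) and Usp46 (10530641), both on chromosome 5. Whether this probe set reads the X-linked gene was not checked.

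**Figure D3:**
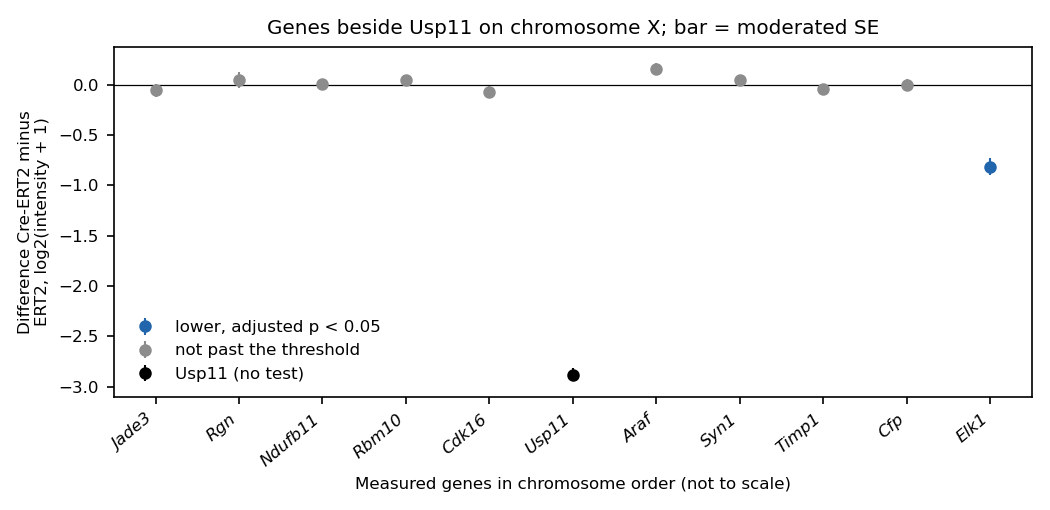
Difference between Cre-ERT2 and ERT2 samples (y axis, log2 of intensity + 1; bars, moderated standard error) for Usp11 and the 10 measured genes within 10 places of it, in chromosome order and not to scale. Usp11 at -2.88 lies between Cdk16 at -0.07 and Araf at 0.16. Whether the probe set of Ndufb11 reads the X-linked gene was not checked.

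In the other classes of deubiquitinase, 0 of 42 measured genes rose and 4 fell in limma, against 4.38% and 3.72% of all genes. At an unadjusted p under 0.05, 3 were higher and 6 lower, against 12.2% and 7.93% of all genes. Uchl1, a ubiquitin C-terminal hydrolase known from neurons, read 1079, 1124 and 1126 in ERT2 and 286, 278 and 260 in Cre-ERT2. The groups lay far apart, and the Cre-ERT2 mean was 24.8% of the control mean. It fell by 2.01 (SE 0.0548, limma adjusted p = 2.12e-05). The related Uchl3, Uchl5 and Bap1 differed by -0.05, 0.16 and -0.06 and did not pass. Otub2, an enzyme of the OTU class, read 1549, 1623 and 1440 in ERT2 and 775, 849 and 807 in Cre-ERT2, and it fell by 0.92 (SE 0.0647, limma adjusted p = 0.000444). It was the 1 gene of 16 in that class that passed. Of 11 JAMM metalloproteases Stambpl1, an endosomal enzyme, fell by 0.34 (SE 0.044, limma adjusted p = 0.00631) and Mpnd fell by 0.29 (SE 0.0577, limma adjusted p = 0.0379). Among 3 unnumbered genes of the Usp fold, 3 Josephin genes and 5 genes of the MINDY and ZUP1 classes 0 passed, and 1, Cyld, had an unadjusted p under 0.05. Cyld, a tumour suppressor in NF-kB signalling, differed by 0.20 (SE 0.0715). Of 7 SENP genes, which remove SUMO, 0 passed and 2 had an unadjusted p under 0.05. Of 11 partner proteins of Usp enzymes 0 passed and 0 had an unadjusted p under 0.05. Of 7 measured E1 enzymes, which start conjugation, 0 passed and 1 had an unadjusted p under 0.05. Over all genes 8.1% passed and 20.1% had an unadjusted p under 0.05.

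**Figure D4:**
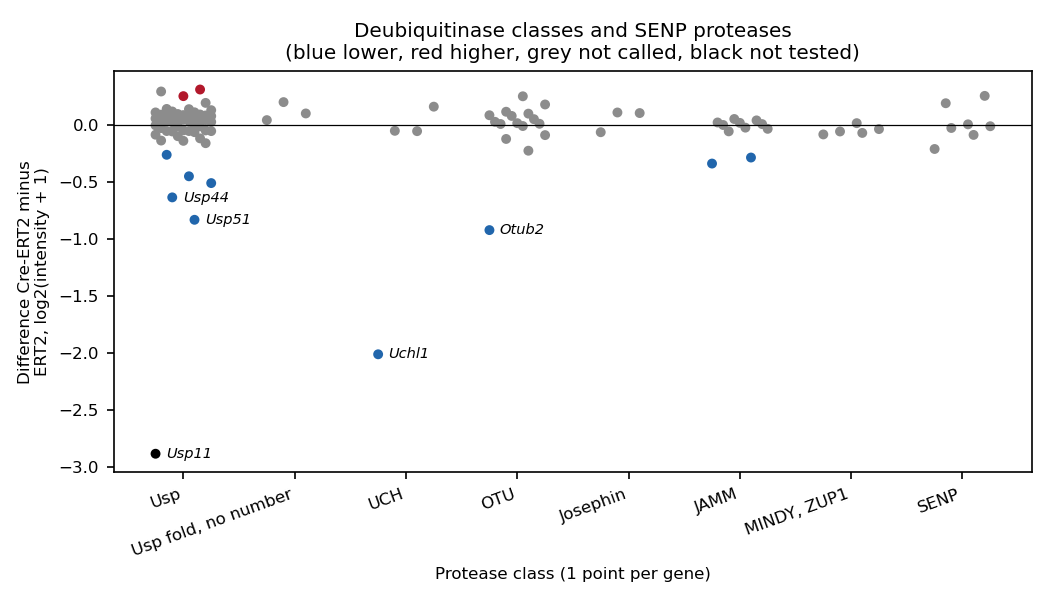
Difference between Cre-ERT2 and ERT2 samples (y axis, log2 of intensity + 1) for every measured gene of each deubiquitinase class and of the SENP proteases, 1 point per gene. Usp11 at -2.88, Uchl1 at -2.01 and Otub2 at -0.92 lie lowest, and all genes of the Josephin, MINDY and ZUP1, and SENP classes lie between -0.21 and 0.25.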

How the data were processed

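Per the labels' protocols, total RNA of 6 samples was isolated with a Qiagen kit, biotin-labelled and run on Affymetrix arrays. The authors deposited 1 intensity per probe set and array, made with RMA per the submitters' processing notes; its version and the array's genome build were not found in the sources used here. The values are on a linear scale, and log2(intensity + 1) was used. RMA equalises the arrays' distributions, which would hide a shift of all genes one way.

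The 35556 probe sets were all fitted with limma 3.58.1 in R 4.3.3 (lmFit, eBayes, no covariates, 3 ERT2 against 3 Cre-ERT2 samples), with Benjamini-Hochberg adjustment over all of them and a threshold of 0.05. "Rose", "fell" and "passed" refer to that threshold. Errors are limma's moderated standard errors, and 95% intervals use its degrees of freedom. A gene is represented by its brightest probe set among those naming 1 gene. The fit was also run on simulated data with independent noise for each probe set and array. Deviations shared by the genes of an array were not simulated, so that run cannot speak to them. Members, gene lists and the rule for named genes (members past the threshold, relatives of Usp11, the 5 largest differences after these, sex-chromosome members, called genes of other lists and neighbours of Usp11) were chosen with earlier results of these data known. Relatives are named from background knowledge. Symbols were matched to RefSeq (GRCm38.p6). Ubiquitin genes were listed but are not analysed here. The number of arrays limits the precision. Alternatives (eBayes settings, scaling, array weights, dim probe sets, probe set averaging, pseudocount, minimum fold, replicate block, each array left out) are in the closing section.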

Additional observations from a re-analysis of the deposited data

How the results depend on the processing

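The difference of Usp11 was -2.79 with a pseudocount of 16 and lay between -2.92 and -2.84 with each array left out; that of Sox4 lay between -1.38 and -1.25. Of the counts of Usp genes, the number higher was 1 under robust fitting, median centring, averaging of probe sets per gene and the replicate block. It was 3 under the intensity trend, 3 of 41 among the brighter probe sets alone and 4 with array weights. It was 0 with a minimum fold of 1.5, and 0 to 1 with each array left out. The number lower was 8 under cyclic loess, 7 with array weights and 5 of 41 among the brighter probe sets alone. It was 2 to 6 with each array left out and 1 with a minimum fold of 1.5. With that minimum fold Usp44, Usp51, Usp6nl, Usp33, Usp3, Usp36 and Usp27x lost their calls. Usp11, which has no test, is in each of these numbers of lower genes. Over all genes the number higher was 1598 with array weights, 97 with the minimum fold and 462 to 922 with an array left out, and the number lower was 1150, 153 and 483 to 652. Of 284 values of 17 other named Usp genes under alternatives, 0 reversed, 40 lost and 7 gained a call. Same-numbered samples did not deviate together in every pair (r = 0.20, 0.34 and -0.05 over probe sets), so the numbers were not taken to pair the samples; under the replicate block 4 Usp genes were lower, and Usp51, Usp3 and Usp36 lost their calls. The cause of these shifts was not tested. With 3 arrays a group, small differences are beyond the precision of these data.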
